A study of Mus musculus with 49 samples.

Results

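Irs2, Sesn1 and Gadd45a are genes that forkhead box O (FoxO) transcription factors are known to switch on when growth signals are low or cells are stressed. The 3 genes, and the lists of related genes below, were chosen with earlier results of these data known. Counts of them called, beside shares of all probe sets, therefore only describe the values. The probe sets of the 3 genes were found by annotation alone: every probe set that matched only Irs2, only Sesn1 or only Gadd45a was taken, whatever its signal. That gave 3 of the 9977 probe sets in the U74Av2 table (37 arrays, 10 groups) and 3 of the 12588 in the U74A table (12 arrays, 4 groups). Each gene had 1 probe set, the same in both tables: 92205_at for Irs2, 95731_at for Sesn1 and 102292_at for Gadd45a. All 3 entered every test, since no filter on low signal was applied.

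The study asked whether immature B cells from mouse bone marrow need signals from their surface immunoglobulin to stay at their stage of development. The receptor was deleted or its signals were blocked, and RNA of sorted cells was measured on Affymetrix arrays. Each value below is a signal, the brightness of a probe set in arbitrary units. Arrays were scaled to a common target, except that the sources used here give no scaling for HEL 48h, BM 48h Ctrl and HEL Mlo. Methods give 4 independent sorts each for Cre Mlo, Cre Mhi and Ctrl Mhi, independent sorts for FxD and FxE, and 2 or 3 sorts for each remaining group. FxE HA and FxE Ctrl have 6 and 4 arrays, so some of these may share a sort, and their p-values measure the spread between arrays, which may be partly technical. The mice were 4 to 8 weeks old in general.

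Cre Mlo cells came from mice with single copies of the B1-8 heavy chain (floxed, so that Cre can delete it) and the 3-83 kappa light chain, plus Mx-Cre, a Cre gene under an interferon-responsive promoter. After growth in interleukin-7 (IL-7, 16 ng/ml) they spent 2 days in interferon alpha/beta without IL-7 and were sorted for low surface IgM (4 arrays). Cre Mhi cells had the same genotype and culture and were sorted for high IgM (4 arrays). Ctrl Mhi cells had the same immunoglobulin genes, interferon and high-IgM sort but no Mx-Cre (4 arrays). B6 Mneg cells were B220+ IgM-negative cells from IL-7 cultures of C57BL/6 marrow, without interferon (3 arrays). GFPpos cells carried an anti-HEL immunoglobulin transgene (HEL is hen egg lysozyme) and a Rag2-GFP reporter. Once grown in IL-7, they spent 1 day with 400 ng/ml herbimycin A, a tyrosine kinase inhibitor, and were sorted as IgM+ GFP+ (3 arrays). GFPneg cells were the IgM+ GFP-negative cells of drug-free cultures of such mice, also grown in IL-7 first (3 arrays). The drug and the GFP gate thus changed together. FxE HA cells were B220+ IgM+ IgD-negative immature cells of Bcl-2 transgenic mice after 24 or 48 h with herbimycin A (6 arrays), and FxE Ctrl cells the same after 24 or 48 h in medium (4 arrays). FxD pre-B cells (B220+ CD43-negative IgM-negative) and FxE immature cells were sorted from Balb/c marrow without culture, and their RNA was amplified in 2 rounds (3 arrays each).

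On the U74A arrays, HEL 48h cells carried the anti-HEL transgene and the Rag2-GFP reporter and were first grown in IL-7 (16 ng/ml). They were sorted as B220+ IgM-high GFP+ after 48 h with 1 ug/ml HEL (3 arrays). BM 48h Ctrl cells of the same genotype and IL-7 growth were sorted as GFP-negative after 48 h without HEL (3 arrays). HEL Mhi and HEL Mlo cells were sorted from IL-7 cultures of anti-HEL transgenic marrow for high IgM and for low IgM (3 arrays each).

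FoxO factors are held in the cytoplasm while PI3-kinase and Akt are active, and enter the nucleus to switch on their targets when that signal drops. Irs2 is the adaptor that links insulin and IGF-1 receptors to PI3-kinase, so its induction by FoxO feeds back on the same pathway. Sesn1 (sestrin 1) restrains the growth kinase complex mTORC1 and Gadd45a binds cell-cycle and stress-kinase proteins after DNA damage; both are also targets of p53. In developing B cells FoxO factors are known for switching on Rag1, Rag2 and Il7r.

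The promoters of the 3 genes are shown because the genes moved together in some comparisons and apart in others, and a reader may want to see what their start sites share. Sequences are from RefSeq (GRCm38.p6), 5′ to 3′ on the gene's strand, 250 bases before and 50 after the start site. Irs2 lies on the minus strand at chr8:11008880-11009179, Gadd45a on the minus strand at chr6:67037358-67037657, and the first Sesn1 promoter on the plus strand at chr10:41810324-41810623. Capitals mark matches on either strand to the FoxO core GTAAACA, the insulin response core CAAAACA, the octamer ATGCAAAT, which POU factors such as Oct-1 and Oct-2 bind, and CCAAT. The motifs were picked with these sequences in view, and none of the matches overlap.
Irs2 promoter: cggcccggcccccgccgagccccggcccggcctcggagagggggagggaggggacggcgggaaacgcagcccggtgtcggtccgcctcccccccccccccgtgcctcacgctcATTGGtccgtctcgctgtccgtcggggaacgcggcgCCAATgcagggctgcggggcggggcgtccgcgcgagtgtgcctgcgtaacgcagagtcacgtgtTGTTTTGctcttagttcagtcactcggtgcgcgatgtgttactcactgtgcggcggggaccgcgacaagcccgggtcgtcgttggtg
Sesn1 promoter 1: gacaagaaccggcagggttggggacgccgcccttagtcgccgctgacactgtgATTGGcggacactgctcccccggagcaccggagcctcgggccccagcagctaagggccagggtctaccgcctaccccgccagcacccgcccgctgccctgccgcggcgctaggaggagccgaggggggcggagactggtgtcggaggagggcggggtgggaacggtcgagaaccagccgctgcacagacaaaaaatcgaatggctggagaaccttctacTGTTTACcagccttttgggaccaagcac
Gadd45a promoter: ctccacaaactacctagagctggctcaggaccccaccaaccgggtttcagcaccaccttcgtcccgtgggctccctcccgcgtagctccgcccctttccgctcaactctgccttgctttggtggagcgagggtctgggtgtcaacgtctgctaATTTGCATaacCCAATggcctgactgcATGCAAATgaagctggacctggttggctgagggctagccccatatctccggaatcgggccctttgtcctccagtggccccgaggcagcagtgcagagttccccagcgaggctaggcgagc
Irs2 held the insulin response core on the reverse strand (bases -37 to -31 from the start site) and CCAAT at 2 positions. The first Sesn1 promoter held the FoxO core on the reverse strand just after its start (bases 23 to 29) and 1 CCAAT. Gadd45a held the octamer at 2 positions, on the reverse strand at bases -97 to -90 and on the forward strand at bases -70 to -63, with a CCAAT between them. A second Sesn1 promoter (chr10:41887189-41887488, plus strand) held only CCAAT. Of the 32817 promoters of this length, 3.65% held GTAAACA, 6.29% CAAAACA, 1.74% ATGCAAAT and 37.4% CCAAT. The 3 genes thus shared no match other than CCAAT in these windows.

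Array medians ran from 345.9 to 544 units on the U74Av2 arrays. Detection calls were not used here, and Irs2 was dim, with group means of 63.1 to 707 units on the U74Av2 arrays. Rag1 averaged 37967 units in Cre Mlo, 13619 in B6 Mneg, 33961 in GFPpos and 16076 in FxD cells, and 4719 in Cre Mhi, 2330 in Ctrl Mhi, 237 in GFPneg and 243 in FxE cells. Both main probe sets of the heavy chain Ighm were lower in Cre Mlo (79149 to 90252 and 61347 to 80488 units) than in Ctrl Mhi arrays (127391 to 147869 and 108176 to 122848 units). Markers of other cells stood high in the FxD, FxE, FxE HA and FxE Ctrl arrays: the 15 myeloid markers summed to 39250 to 81294, 70889 to 287243, 32487 to 142893 and 33348 to 134815 units in these groups, against 4064 to 8248 units in the Cre Mlo, Cre Mhi and Ctrl Mhi arrays. S100a8, S100a9 and Camp, granulocyte genes, were the brightest of them. The 7 measured erythroid markers summed to 61620 to 123846 units in FxD and 118435 to 164294 in FxE, against 14414 to 43525 in FxE HA and 7047 to 16052 in FxE Ctrl cells. The higher sum of FxE HA over FxE Ctrl cells lay in Car2 (15330 against 3594 units), the 1 of 7 called there. Hba-a1, a haemoglobin gene, averaged 4421 units in FxE HA against 5332 in FxE Ctrl cells. The 8 measured T cell markers stayed between 493 and 3456 units in every U74Av2 array, with Cd3e averaging 92 units in Cre Mlo and 102 in Ctrl Mhi cells. In bulk RNA of this kind, more cells of a type and more RNA per cell cannot be told apart.

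**Figure D1:**
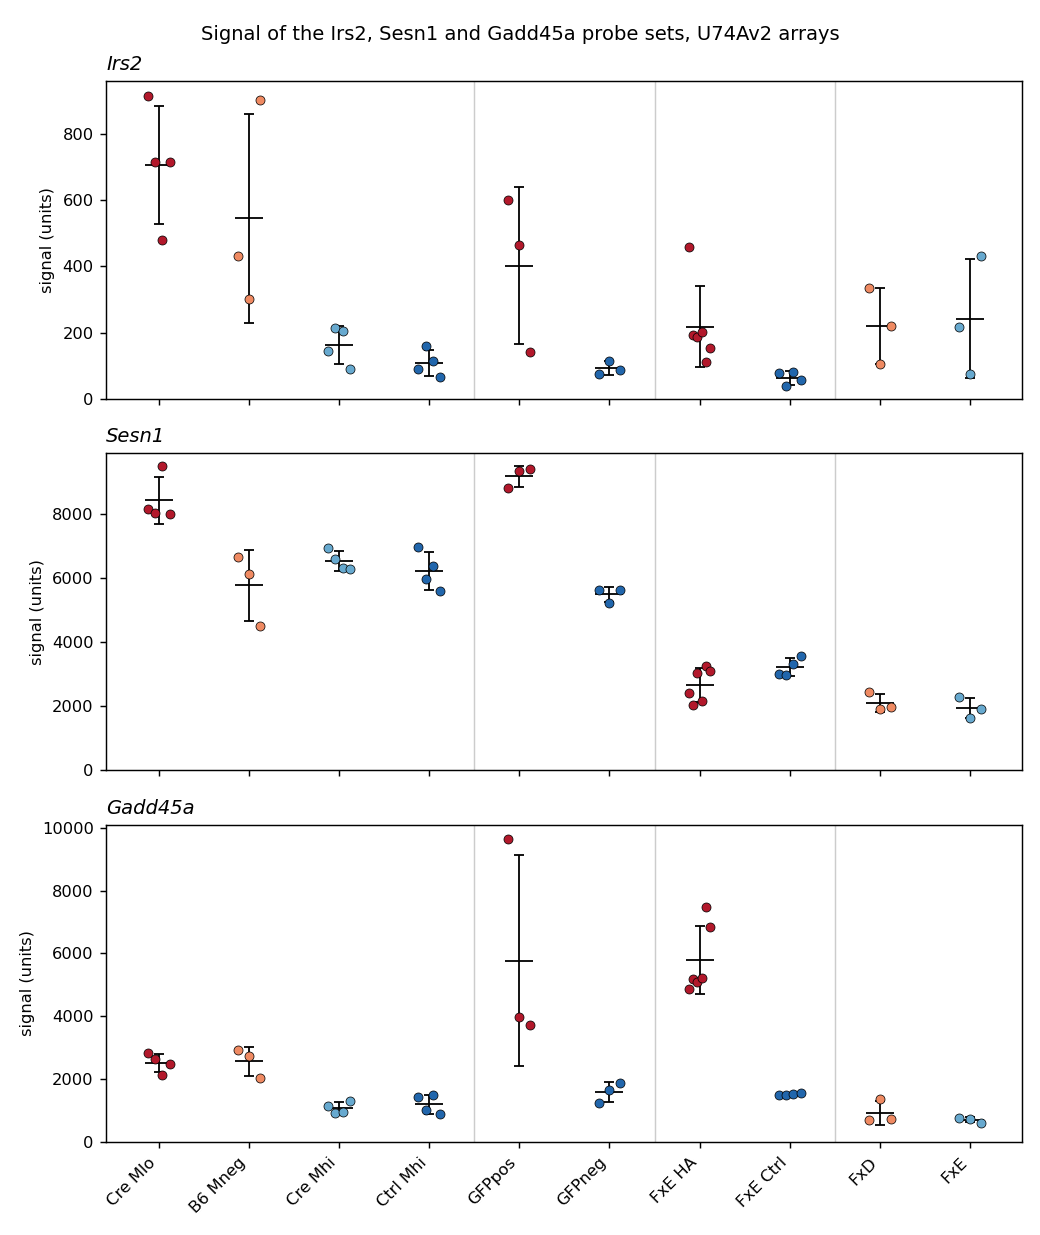
Signal in arbitrary units (vertical axis, linear, from 0) of the Irs2, Sesn1 and Gadd45a probe sets in each of the 37 U74Av2 arrays, by group. Points are arrays, and bars are the mean and SD of a group; all Cre Mlo points lie above all Ctrl Mhi points in each panel, and the Gadd45a points of FxE HA cells lie between 4887 and 7481 units, above the FxE Ctrl points at 1491 to 1568.

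Loss of the receptor went with higher signals of all 3 genes. Irs2 had 918, 716, 479.8 and 716 units in the Cre Mlo arrays, against 90.7, 159, 115 and 64.9 units in the Ctrl Mhi arrays. The groups were far apart, the lowest Cre Mlo array being above every Ctrl Mhi array. Here and below, the share of all probe sets whose groups do not overlap was not counted, nor the share with an unadjusted p under 0.05. A lack of overlap, or a count at an unadjusted p, therefore only describes the values. Gadd45a had 2823, 2649, 2152 and 2480 units in Cre Mlo, against 1430, 1016, 1498 and 902 units in Ctrl Mhi cells, again without overlap. Sesn1 was bright in both, with 8132, 8020, 9490 and 7993 units in Cre Mlo against 6962, 5951, 6356 and 5586 units in Ctrl Mhi cells; the groups did not overlap, and Cre Mlo replicate 3 stood above the other three. Log2 signals were fitted with limma, which moderates each probe set's variance by that of all others, and p-values were adjusted over all 9977 probe sets by Benjamini and Hochberg. The log2 difference, Cre Mlo minus Ctrl Mhi, was 2.76 ± 0.34 for Irs2 (SE, a 6.76-fold rise, adjusted p = 0.000561), 1.09 ± 0.19 for Gadd45a (2.12-fold, adjusted p = 0.00568) and 0.44 ± 0.11 for Sesn1 (1.35-fold, adjusted p = 0.0356). All 3 passed the threshold of an adjusted p under 0.05, which 8.33% of all probe sets passed in either direction and 4.23% passed by being higher. Only 14 probe sets, Irs2 included, rose as much as Irs2, while 289 rose as much as Gadd45a and 1464 as much as Sesn1. The Sesn1 call was narrow: without any 1 of 7 arrays (all 4 Cre Mlo arrays and Ctrl Mhi replicates 2, 3 and 4) its adjusted p was 0.0623 to 0.0924.

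Cre Mhi cells give the comparison within Mx-Cre cultures. They are not an undeleted control: the study found part of their floxed heavy chain alleles already deleted. It described their expression as intermediate between that of Ctrl Mhi and Cre Mlo cells. Irs2 had 144, 212, 203 and 90.1 units in the Cre Mhi arrays, below every Cre Mlo array. Gadd45a had 1156, 917, 959.5 and 1313 units, also below every Cre Mlo array. Sesn1 had 6929, 6586, 6294 and 6280.3 units, below the lowest Cre Mlo value of 7993. Irs2 was 4.48-fold higher in Cre Mlo than in Cre Mhi cells (log2 difference 2.16 ± 0.34, SE, limma adjusted p = 0.00349) and Gadd45a 2.34-fold higher (1.23 ± 0.19, adjusted p = 0.00365). Sesn1 differed by 0.36 ± 0.11 in log2 and missed the threshold (adjusted p = 0.0962), so 2 of the 3 genes passed where 6.08% of all probe sets did. Arrays of the same number are paired here, and within pairs the Cre Mlo over Cre Mhi ratio was 2.36 to 7.95 for Irs2, 1.89 to 2.89 for Gadd45a and 1.17 to 1.51 for Sesn1, above 1 in 4 of 4 pairs for each gene. Cre Mhi minus Ctrl Mhi differences were 0.59 ± 0.34 for Irs2, 0.07 ± 0.11 for Sesn1 and -0.14 ± 0.19 for Gadd45a. Of these, 0 passed in limma, 0 had an unadjusted p under 0.05 and 0 met the methods' t-test and criteria, where 0.02% of all probe sets were called. The 95% interval for Irs2, -0.16 to 1.34 in log2, is the widest of the 3.

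**Figure D2:**
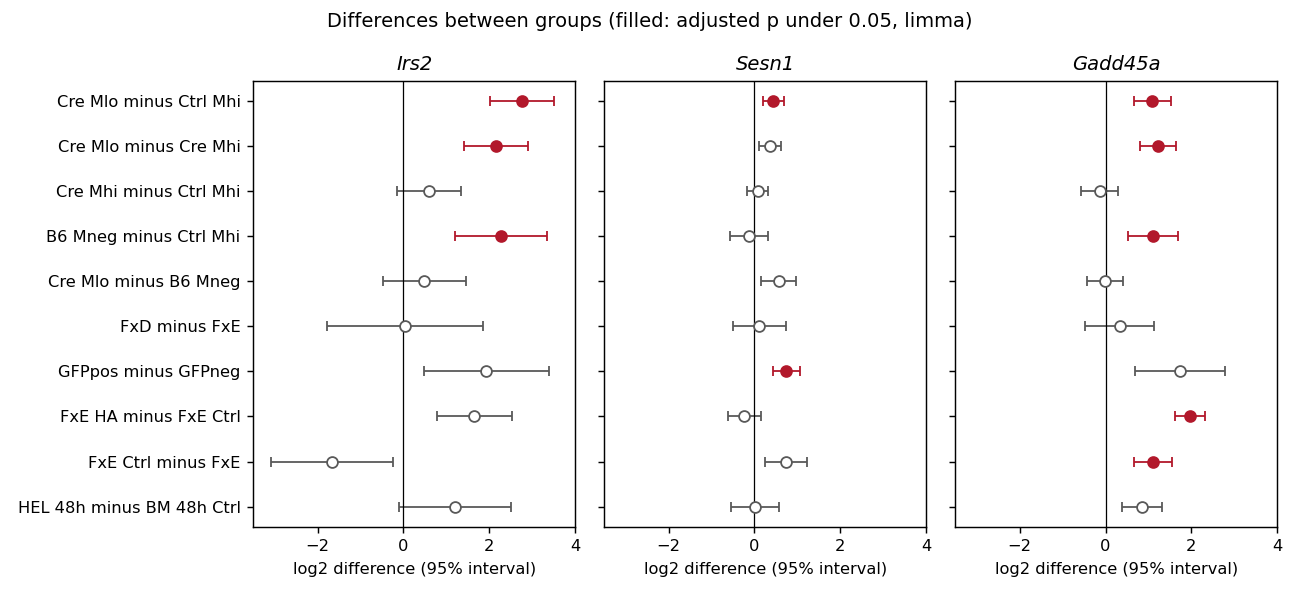
Log2 differences of the 3 genes in 10 comparisons, first-named group minus second, with 95% intervals from limma; filled points passed an adjusted p of 0.05. Cre Mlo minus Ctrl Mhi is filled for all 3 genes, and FxD minus FxE lies near 0 for each with intervals as wide as -1.77 to 1.85.

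B6 Mneg cells, sorted as lacking surface IgM, had Irs2 at 431, 303 and 905 units, against the 64.9 to 159 units of Ctrl Mhi cells. Gadd45a had 2942, 2727 and 2048 units in B6 Mneg, against 902 to 1498 units in Ctrl Mhi cells. Neither gene's groups overlapped, whereas Sesn1 (6649.8, 6127 and 4512 units) lay across the Ctrl Mhi range of 5586 to 6962 units. In limma, Irs2 was 4.81-fold higher in B6 Mneg than in Ctrl Mhi cells (log2 difference 2.27 ± 0.45, adjusted p = 0.0195) and Gadd45a 2.15-fold higher (1.10 ± 0.25, adjusted p = 0.0289), while Sesn1 differed by -0.12 ± 0.18 (adjusted p = 0.698). So 2 of 3 genes passed, in a comparison where 14.2% of all probe sets did. The groups also differ in strain, interferon and IL-7, which cannot be told apart here, and they share the Ctrl Mhi arrays with the comparison above. Leaving out 1 array ended the Irs2 call without B6 Mneg replicate 1 or 3 (adjusted p = 0.0524 and 0.05002) and the Gadd45a call without B6 Mneg replicate 1 or 2 or Ctrl Mhi replicate 2 or 4 (adjusted p = 0.0614 to 0.102).

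Cre Mlo cells were then set directly against B6 Mneg cells. Gadd45a had a log2 difference, Cre Mlo minus B6 Mneg, of -0.02 ± 0.17 and a 95% interval of -0.43 to 0.40. Irs2 differed by 0.49 ± 0.41 (interval -0.48 to 1.46). Sesn1 was 0.56 ± 0.17 higher in log2 in Cre Mlo cells, and every Cre Mlo array lay above every B6 Mneg array. None of the 3 passed in limma (adjusted p = 0.476, 0.0696 and 0.966 for Irs2, Sesn1 and Gadd45a), where 16.8% of all probe sets did; 1 had an unadjusted p under 0.05 and 0 met the methods' criteria.

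Herbimycin A, together with the GFP+ gate, also went with higher signals in cells of the anti-HEL mice. Kinase activity was not measured on these arrays. Sesn1 had 8793, 9336 and 9381 units in GFPpos, against 5611, 5216 and 5627 units in GFPneg cells. The groups were tight and far apart. Gadd45a had 9636, 3968 and 3721 units in GFPpos against 1238, 1657 and 1872 units in GFPneg cells, so GFPpos replicate 1 was far above the other two and all 3 lay above the GFPneg arrays. Irs2 had 602, 465 and 142 units in GFPpos against 73.4, 115 and 85.5 units in GFPneg cells, without overlap but with GFPpos replicate 3 close to the GFPneg range. The limma log2 difference, GFPpos minus GFPneg, was 0.74 ± 0.12 for Sesn1 (1.67-fold, adjusted p = 0.0494), 1.74 ± 0.42 for Gadd45a (3.33-fold, adjusted p = 0.0976) and 1.93 ± 0.58 for Irs2 (3.8-fold, adjusted p = 0.149). Thus 1 of 3 genes passed, beside 2.59% of all probe sets, although 3 of 3 had an unadjusted p under 0.05. Sesn1's call ended whichever of the 6 arrays was left out (adjusted p = 0.0798 to 0.155), whereas all 3 passed when the 37 arrays shared one estimate of the spread (adjusted p = 0.0332 for Irs2 and 9.4e-05 for Gadd45a). The share of all probe sets with an unadjusted p under 0.05, or called in that shared fit, was not counted. Set against the GFPpos effect, the receptor deletion effect (Cre Mlo minus Ctrl Mhi) differed by 0.83 ± 0.76 in log2 for Irs2 (95% interval -0.72 to 2.38), -0.30 ± 0.24 for Sesn1 (-0.79 to 0.18) and -0.65 ± 0.38 for Gadd45a (-1.42 to 0.12). Of these 0 passed in limma and 0 had an unadjusted p under 0.05, beside 0.461% of all probe sets called.

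In FxE cells the same drug was applied to cells with diverse receptors. Gadd45a had 4887, 5205, 5106, 5226, 7481 and 6845 units in the FxE HA arrays, against 1491, 1492, 1524 and 1568 units in the FxE Ctrl arrays. Every treated array was more than 3 times as bright as any untreated one. Irs2 ran from 111 to 459.8 units in FxE HA (median 189.9; replicates 1 to 6 had 459.8, 193, 187, 201, 111 and 155 units), above the 77.2, 36.5, 81.5 and 57 units of FxE Ctrl. Sesn1 did not follow: it had 2419, 2043, 3031, 2152, 3237 and 3099.9 units in FxE HA and 3001, 2979.9, 3300.1 and 3569 units in FxE Ctrl cells, with overlap. In a limma fit with hours as a factor, FxE HA minus FxE Ctrl was 1.96 ± 0.16 in log2 for Gadd45a (3.9-fold, adjusted p = 0.000255), 1.65 ± 0.39 for Irs2 (3.14-fold, adjusted p = 0.0538) and -0.24 ± 0.17 for Sesn1 (adjusted p = 0.586). Gadd45a was the 1 gene of 3 to pass, beside 3.37% of all probe sets. Without the hours term Irs2 passed as well (adjusted p = 0.0454). The share of all probe sets called without that term was not counted.

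Hours are given by a figure legend of the study and not by the labels. At 24 h Gadd45a averaged 5106 units in FxE HA (n = 4) against 1492 in FxE Ctrl cells (n = 2), and at 48 h 7163 in FxE HA (n = 2) against 1546 in FxE Ctrl cells (n = 2), ratios of 3.42 and 4.63. Irs2 averaged 260.2 units in FxE HA against 56.9 in FxE Ctrl cells at 24 h and 133 against 69.3 units at 48 h, ratios of 4.58 and 1.92. For Sesn1 the ratios were 0.806 and 0.923. The change of the drug effect between 24 and 48 h was 0.44 ± 0.45 in log2 for Gadd45a, -1.24 ± 0.93 for Irs2 and 0.21 ± 0.26 for Sesn1. None passed in limma (0 had an unadjusted p under 0.05), as was so for nearly all genes (0.0702% called).

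**Figure D3:**
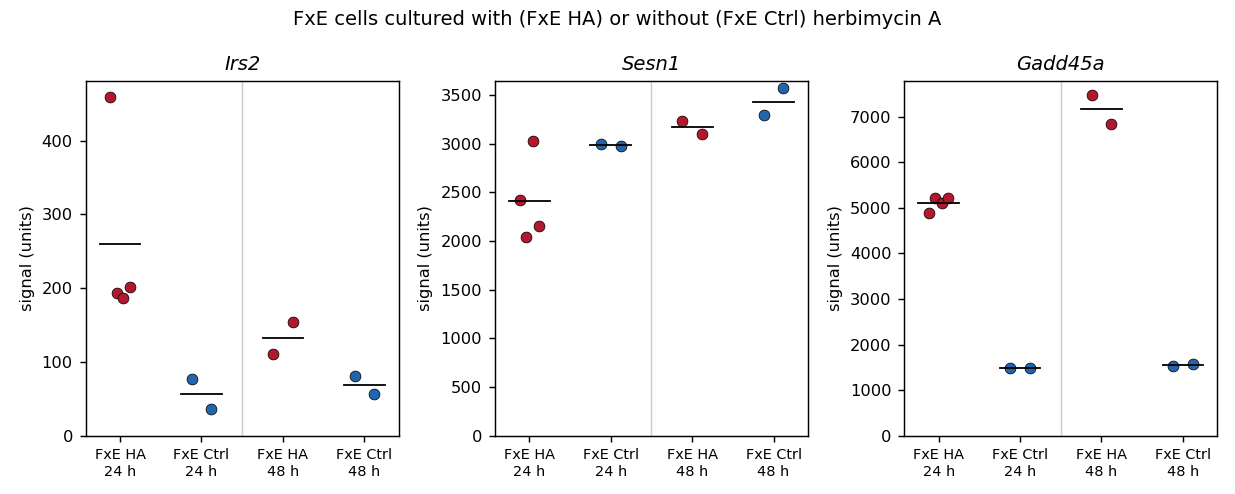
Signal in arbitrary units (vertical axis, linear, from 0) of the 3 genes in FxE HA and FxE Ctrl cells after 24 and 48 h of culture. Points are arrays and lines their means; Gadd45a averaged 5106 and 7163 units in FxE HA against 1492 and 1546 units in FxE Ctrl cells, while the Sesn1 means were lower in FxE HA cells at both times.

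The drug's effect on Sesn1 differed between the 2 cell sources. The FxE HA effect minus the GFPpos effect was -1.03 ± 0.23 in log2 (95% interval -1.50 to -0.56, limma adjusted p = 0.0119, beside 1.92% of all probe sets called), and it passed whichever of the 16 arrays was left out (adjusted p at most 0.0397). For Gadd45a (0.17 ± 0.36, interval -0.57 to 0.92) and Irs2 (-0.22 ± 0.73, interval -1.72 to 1.28) the same difference did not pass. The GFPpos cells were also gated on GFP. The cell sources differ in genotype, culture, hours with the drug and the myeloid markers given above. The part of these in the difference was not tested.

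FxE Ctrl cells, kept in medium alone, differed from uncultured FxE cells in Gadd45a. Gadd45a had 1491 to 1568 units in FxE Ctrl cells, against 759, 754 and 623 units in FxE cells, and the FxE Ctrl minus FxE difference was 1.10 ± 0.19 in log2 (2.14-fold, limma adjusted p = 0.029). Sesn1 had 2979.9 to 3569 units in FxE Ctrl cells, against 2282, 1641 and 1928 units in FxE cells, without overlap and with a difference of 0.73 ± 0.21 (adjusted p = 0.116). Irs2 had 36.5 to 81.5 units in FxE Ctrl cells, against 218, 74.7 and 433 units in FxE cells, with overlap and a log2 difference of -1.67 ± 0.60 (adjusted p = 0.192). So 1 of 3 genes passed, beside 3.22% of all probe sets. The Bcl-2 transgene, culture and possibly the strain and the rounds of RNA amplification changed together and cannot be told apart. The erythroid markers summed to 7047 to 16052 units in FxE Ctrl cells, against 118435 to 164294 units in FxE cells; their part in these values was not tested. The Gadd45a call ended without any 1 of 6 arrays (all but FxE Ctrl replicate 3, adjusted p = 0.0614 to 0.128).

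Between pre-B and immature cells taken straight from marrow no difference of the 3 genes was detected. Irs2 had 334, 103 and 221 units in FxD and 218, 74.7 and 433 units in FxE cells. Sesn1 had 2429.6, 1899 and 1979 units in FxD cells, across the FxE range of 1641 to 2282 units. Gadd45a had 704, 1364 and 737 units in FxD cells, against 759, 754 and 623 units in FxE cells. The FxD minus FxE differences were 0.04 ± 0.74 for Irs2, 0.11 ± 0.25 for Sesn1 and 0.33 ± 0.33 for Gadd45a in log2. None passed in limma (0 at an unadjusted p under 0.05, 0 by the methods' criteria), where 3% of all probe sets did. With 3 arrays a group the intervals are wide: -1.77 to 1.85 for Irs2, -0.50 to 0.73 for Sesn1 and -0.48 to 1.14 for Gadd45a. The receptor deletion effect on Irs2 (Cre Mlo minus Ctrl Mhi) nevertheless exceeded the FxD minus FxE difference by 2.72 ± 0.76 in log2 (limma adjusted p = 0.0369, beside 3.86% of all probe sets called). That call ended without any 1 of 9 of the 14 arrays, namely Cre Mlo replicates 1, 2 and 4, Ctrl Mhi replicates 1 and 4, FxD replicates 2 and 3 and FxE replicates 1 and 3 (adjusted p = 0.0517 to 0.157). For Gadd45a (0.76 ± 0.38, adjusted p = 0.358) and Sesn1 (0.32 ± 0.24, adjusted p = 0.603) the difference did not pass. The myeloid markers summed to 39250 to 81294 units in FxD and 70889 to 287243 in FxE cells, far above the Cre Mlo and Ctrl Mhi arrays. RNA of FxD and FxE cells was also amplified in 2 rounds. The part of these in the values above was not tested.

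HEL 48h cells were kept with the antigen of their receptor and sorted as GFP+, while BM 48h Ctrl cells had no antigen and were sorted as GFP-negative. The antigen and the GFP gate thus changed together and cannot be told apart. Gadd45a had 3231, 3238 and 3062 units in HEL 48h, against 1837, 1559 and 1866 units in BM 48h Ctrl cells, without overlap. Irs2 had 143, 549 and 182 units in HEL 48h against 85.1, 102 and 136 units in BM 48h Ctrl cells, also without overlap, and HEL 48h replicate 2 stood alone. Sesn1 had 7901, 11203 and 11586 units in HEL 48h against 10496, 10299 and 9329 units in BM 48h Ctrl cells, with overlap. HEL 48h minus BM 48h Ctrl was 0.86 ± 0.19 in log2 for Gadd45a (1.82-fold, limma adjusted p = 0.182), 1.20 ± 0.54 for Irs2 (adjusted p = 0.467) and 0.01 ± 0.23 for Sesn1 (adjusted p = 0.993). None of the 3 passed after adjustment over 12588 probe sets (1 had an unadjusted p under 0.05, 0 met the methods' criteria), where 0.23% did. The arrays numbered 3 were scanned on another day than the arrays numbered 1 and 2. The Gadd45a ratio was 1.64 on that day and 1.76 and 2.08 on the other, and the Irs2 ratios were 1.34 on that day and 1.68 and 5.36 on the other.

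**Figure D4:**
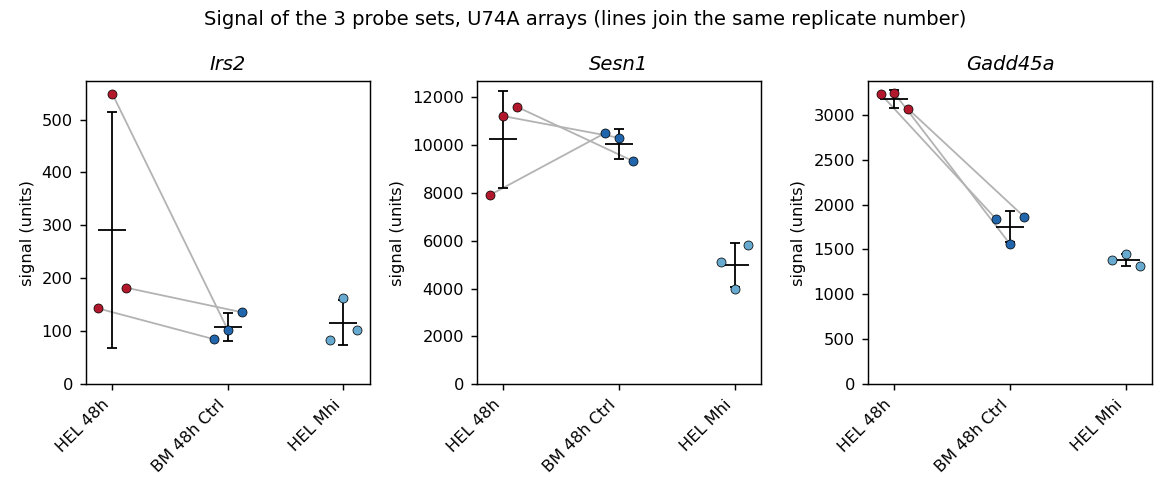
Signal in arbitrary units (vertical axis, linear, from 0) of the 3 genes in the HEL 48h, BM 48h Ctrl and HEL Mhi arrays. Points are arrays, bars the mean and SD, and lines join HEL 48h and BM 48h Ctrl arrays of the same number; all Gadd45a points of HEL 48h cells (3062 to 3238 units) lie above those of BM 48h Ctrl cells (1559 to 1866 units).

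HEL Mhi cells, on U74A arrays without a matched group, had 84, 164 and 102 units of Irs2, 5119, 3988 and 5837 units of Sesn1, and 1387, 1453 and 1314 units of Gadd45a. HEL Mlo arrays are on a far lower scale, with medians of 21.6 to 26.2 units. They gave 5.42, 5.25 and 5.93 units of Irs2, 107, 84.4 and 194 units of Sesn1, and 40.4, 38 and 57.3 units of Gadd45a, which were set against no other group.

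The order of the groups differed from gene to gene on the U74Av2 arrays. Irs2 averaged 707 ± 179 units in Cre Mlo cells (SD, n = 4), then 546 ± 317 in B6 Mneg, 403 ± 237 in GFPpos, 242 ± 181 in FxE, 219.5 ± 115 in FxD, 218 ± 123 in FxE HA, 162 ± 56.9 in Cre Mhi, 108 ± 40.1 in Ctrl Mhi, 91.4 ± 21.5 in GFPneg and 63.1 ± 20.7 in FxE Ctrl cells. Every neighbour in this order overlapped the next, over an 11.2-fold span. Gadd45a fell into separate levels: FxE HA (5791 ± 1088) and GFPpos (5775 ± 3346) cells overlapped each other and lay above all arrays of B6 Mneg (2572 ± 467) and Cre Mlo cells (2526 ± 286), which in turn lay above those of GFPneg cells (1589 ± 323). Below these came FxE Ctrl (1519 ± 36), Ctrl Mhi (1211 ± 297), Cre Mhi (1086 ± 184), FxD (935 ± 372) and FxE cells (712 ± 77.3), each overlapping the next, over an 8.14-fold span. Sesn1 was ordered by the source of the cells first. GFPpos (9169.8 ± 327) and Cre Mlo cells (8409 ± 724) lay above Cre Mhi (6522 ± 306), Ctrl Mhi (6214 ± 590), B6 Mneg (5763 ± 1115) and GFPneg cells (5485 ± 233). All of these lay above FxE Ctrl (3212 ± 279), FxE HA (2663 ± 522), FxD (2103 ± 286) and FxE cells (1950.1 ± 321), over a 4.7-fold span. The 6 measured B lineage markers summed to 25613 to 54257 units in the FxE Ctrl, FxE HA, FxD and FxE arrays. In the other U74Av2 arrays they summed to 137658 to 208245 units. Pax5 and Ptprc went otherwise, averaging 13144 and 7888 units in FxE against 8599 and 7439 in Ctrl Mhi cells. RNA of FxD and FxE cells was also amplified in 2 rounds. The part of these in the Sesn1 values was not tested. Across the 10 group means of log2 signal the 3 genes went together only loosely, with Pearson's r of 0.35 for Irs2 and Sesn1, 0.42 for Irs2 and Gadd45a, and 0.40 for Sesn1 and Gadd45a, as a description over groups that share batches of culture and sorting.

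Likeness over the 10 groups was sought among 3292 probe sets that were bright enough and varied enough between group means. The genes most like Irs2 were Rab21 (r = 0.88), a small GTPase, Ankrd33b (0.86), Csf1 (0.84), the macrophage growth factor, Gpam (0.84), an enzyme of triglyceride synthesis, and Dgcr6 (0.83). Those most like Sesn1 were Ivns1abp (0.99), Clk4 (0.98), a kinase of splicing factors, Gng2 (0.98), Plekho1 (0.98) and Ddx6 (0.98), an RNA helicase. The part of the B lineage marker sums and the RNA amplification given above in this likeness was not tested. Those most like Gadd45a were St13 (0.92), a co-chaperone of Hsp70, Ubxn4 (0.92), Ulk1 (0.91), the kinase that starts autophagy, Smap2 (0.91) and Hbs1l (0.91).

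Of the FoxO factors themselves, neither Foxo3 nor Foxo4 passed in any comparison. Foxo3 averaged 2478 units in Cre Mlo against 2290 in Ctrl Mhi cells (log2 difference 0.12, limma adjusted p = 0.705), and 2723 in GFPpos against 2376 in GFPneg cells (0.17, adjusted p = 0.701). Foxo4 averaged 3453 units in Cre Mlo against 3399 in Ctrl Mhi cells (0.03, adjusted p = 0.94). Foxo1 and Foxo6 were not analysed here, having no probe set of their own.

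Of the other FoxO targets known from lymphocytes, 7 of 16 measured rose in Cre Mlo against Ctrl Mhi cells and 0 fell, with a median log2 difference of 0.38 beside -0.04 over all probe sets, of which 4.23% rose and 4.1% fell. Rag1, a subunit of the V(D)J recombinase, averaged 37967 units in Cre Mlo against 2330 in Ctrl Mhi cells (4.06, adjusted p = 1.88e-06). Its partner Rag2 averaged 3346 against 463 units (2.86, adjusted p = 8.5e-05). The chemokine receptors Cxcr4 and Ccr7 rose by 1.25 and 0.66 in log2 (adjusted p = 0.00105 and 0.00706), and the IL-7 receptor Il7r by 1.59 (adjusted p = 0.00945). In GFPpos against GFPneg cells 4 of 16 rose and 0 fell (median 0.54 beside -0.02, where 1.37% of all probe sets rose and 1.21% fell): Rag1, Rag2, the adaptor Blnk (1.24, adjusted p = 0.0414) and Ccr7 (1.06, adjusted p = 0.0481). The GFP gate reports Rag2 expression, so the Rag values there follow from the sort. In FxE HA against FxE Ctrl cells 2 of 16 rose, Rag1 (2.47, adjusted p = 0.00282) and Il7r (1.45, adjusted p = 0.0245), and 1 fell, Bcl6 (-1.35, adjusted p = 0.0148), a repressor of germinal centre cells. The list's median there was -0.17 beside 0.07 over all probe sets, of which 1.18% rose and 2.19% fell.

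Of the FoxO targets known from metabolism and stress, 1 of 14 rose and 1 fell in Cre Mlo against Ctrl Mhi cells, beside the 4.23% and 4.1% of all probe sets. The one that rose was Gabarapl1 (1845 against 879 units, log2 difference 1.09, adjusted p = 0.00953), which serves in autophagosome formation, and the one that fell was Klf4 (-1.33, adjusted p = 0.0483), a transcription factor that restrains proliferation. Gabarapl1 rose too in GFPpos cells (2971 against 923 units in GFPneg cells, 1.72, adjusted p = 0.0428) as the 1 of 14 to pass, where 1.37% of all probe sets rose. In FxE HA cells 0 passed in limma, and 3 had an unadjusted p under 0.05, for which the share of all probe sets was not counted. List medians were 0.05, -0.05 and 0.31 in the 3 comparisons, beside -0.04, -0.02 and 0.07 over all probe sets.

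Around Irs2 in the insulin and PI3-kinase pathway, 6 of 23 genes rose in Cre Mlo against Ctrl Mhi cells and 1 fell, beside 4.23% and 4.1% of all probe sets, with a median log2 difference of 0.32 beside -0.04 over all. Sgk1, a kinase related to Akt, averaged 1349 units in Cre Mlo against 578 in Ctrl Mhi cells (1.23, adjusted p = 0.00424). Sos2, a Ras exchange factor, averaged 925 against 419 units (1.16, adjusted p = 0.00426). Igf2r, which clears IGF-2, rose by 0.80 (adjusted p = 0.032), and Inpp5d (SHIP), a lipid phosphatase that opposes PI3-kinase, fell (-0.53, adjusted p = 0.0414). Sgk1 rose also in GFPpos (4466 against 679.8 units in GFPneg cells, adjusted p = 0.0302) and FxE HA cells (2996 against 1452 units in FxE Ctrl cells, adjusted p = 0.00783). Igf1r, the receptor of IGF-1, rose in GFPpos cells (1821 against 615 units in GFPneg, 1.56, adjusted p = 0.0393), in B6 Mneg cells (1753 against 670.3 units in Ctrl Mhi, 1.35, adjusted p = 0.019) and in HEL 48h cells (3504 against 809.6 units in BM 48h Ctrl, 2.11, adjusted p = 0.0378). In Cre Mlo cells it averaged 1199 units against 670.3 in Ctrl Mhi cells and missed the threshold (0.84, adjusted p = 0.0958). Irs1, the sister adaptor of Irs2, averaged 72.7 units in Cre Mlo against 33.8 in Ctrl Mhi cells, and Insr, the insulin receptor, 168 against 108 units; neither passed in any comparison.

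**Figure D5:**
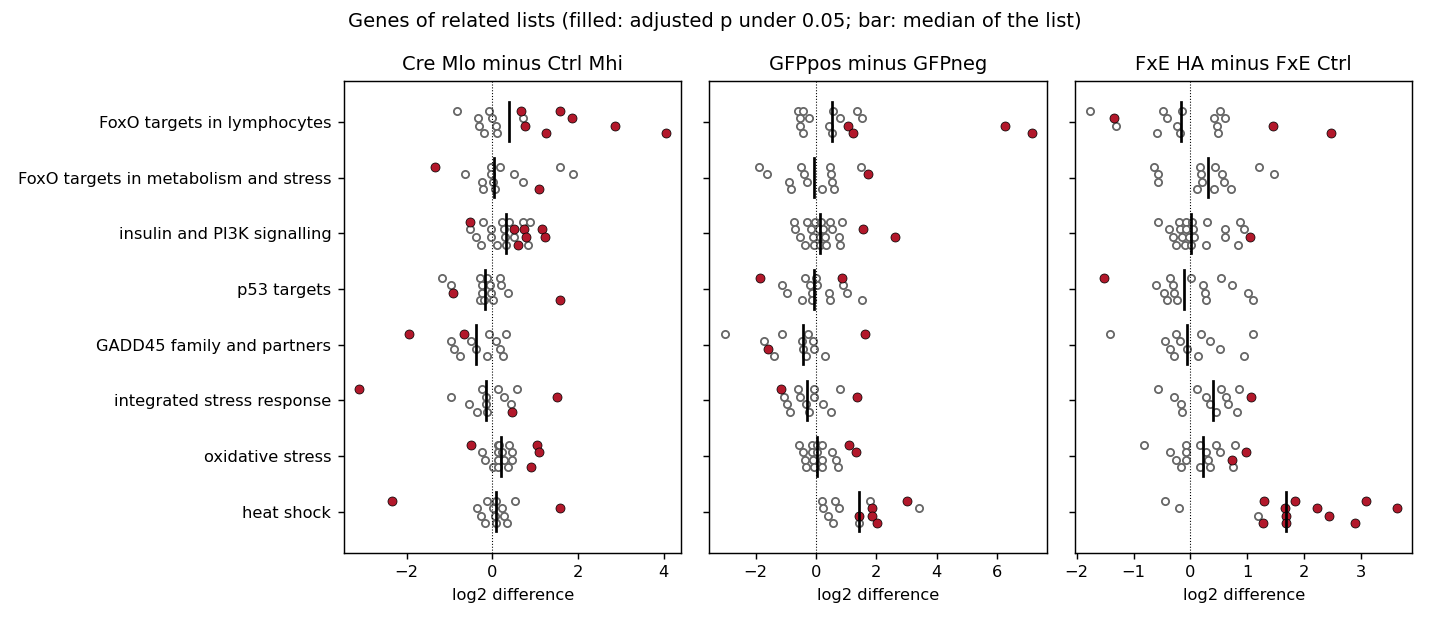
Log2 difference (horizontal axis) of each measured gene of 8 related lists in 3 comparisons. Points are genes, filled where the adjusted p was under 0.05, and the bar is the median of the list; the heat shock medians were 1.41 in GFPpos and 1.68 in FxE HA cells but 0.08 in Cre Mlo cells.

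The relatives of Gadd45a gave calls in both directions. Gadd45b fell in Cre Mlo cells, averaging 981 units against 1536 in Ctrl Mhi cells (log2 difference -0.65, adjusted p = 0.0293), and averaged 2867 units in FxE HA against 2476 in FxE Ctrl cells (0.18, adjusted p = 0.68). Gadd45g averaged 1023 units in Cre Mlo against 958 in Ctrl Mhi cells (0.09, adjusted p = 0.858) and rose in GFPpos cells (933 against 308 units in GFPneg, 1.62, adjusted p = 0.0305). Egr1, an immediate early factor that can act upstream of the family, fell in Cre Mlo (464 against 1538 units in Ctrl Mhi cells, -1.94, adjusted p = 0.0221) and in GFPpos cells (419.9 against 1223 units in GFPneg, -1.57, adjusted p = 0.0424). Of the 13 measured genes of this family and its partners, 0 rose and 2 fell in Cre Mlo cells (4.23% and 4.1% of all probe sets), and 1 rose and 1 fell in GFPpos cells (1.37% and 1.21%). In limma 0 passed in FxE HA cells, where 2 had an unadjusted p under 0.05. The share of all probe sets at that unadjusted p was not counted.

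Sesn1 and Gadd45a are also known p53 targets. Of 16 other p53 targets, 1 rose and 1 fell in Cre Mlo (4.23% and 4.1% of all probe sets), 1 rose and 1 fell in GFPpos (1.37% and 1.21%), and 0 rose and 1 fell in FxE HA cells (1.18% and 2.19%), with list medians of -0.17, -0.05 and -0.11. Rrm2b, a subunit of ribonucleotide reductase, averaged 10354 units in Cre Mlo against 3538 in Ctrl Mhi cells (1.58, adjusted p = 0.000409). Cd82, a tetraspanin, fell to 2021 units in Cre Mlo against 3824 in Ctrl Mhi cells (adjusted p = 0.00184). In GFPpos cells the antiproliferative Btg2 rose (0.88, adjusted p = 0.0481) and Tap1, of the peptide transporter for antigen presentation, fell (-1.85, adjusted p = 0.023). Cdkn1a, the p21 inhibitor of the cell cycle and the best known p53 target, averaged 515 units in Cre Mlo against 1012 in Ctrl Mhi cells (-0.96, adjusted p = 0.277) and 783 in GFPpos against 1670 in GFPneg cells (-1.14, adjusted p = 0.0798). It rose in B6 Mneg cells (2557 units, 1.31 over Ctrl Mhi, adjusted p = 0.0177). Trp53, Sesn2 and Sesn3 had no probe set of their own, and Ccng1 had one only on the U74A arrays (1065 units in HEL 48h against 1045 in BM 48h Ctrl cells).

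Other stress genes were looked at for the same reason. In Cre Mlo against Ctrl Mhi cells, 2 of 14 genes of the integrated stress response rose and 1 fell, 3 of 18 oxidative stress genes rose and 1 fell, and 1 of 14 heat shock genes rose and 1 fell, beside 4.23% of all probe sets that rose and 4.1% that fell. Herpud1, of endoplasmic reticulum quality control, averaged 10619 units in Cre Mlo against 3816 in Ctrl Mhi cells (1.52, adjusted p = 0.00155), and Nfe2l2, the master factor of the antioxidant response, 5439 against 2556 units (1.09, adjusted p = 0.000471). Gstm1, a glutathione transferase, and Prdx2, a peroxiredoxin, rose by 0.91 and 1.04 (adjusted p = 0.000565 and 0.00195), and Gstp1 fell (-0.51, adjusted p = 0.0155). In GFPpos cells Nfe2l2 and Gstm1 rose by 1.32 and 1.09 (adjusted p = 0.029 and 0.0335). Cebpb, a factor of stress and myeloid genes, averaged 25.8 units in Cre Mlo against 232 in Ctrl Mhi cells (-3.11, adjusted p = 0.00845). The stress kinase gene Eif2ak3 (PERK) rose by 0.47 in Cre Mlo cells (adjusted p = 0.0269), and in GFPpos cells Herpud1 rose by 1.35 (adjusted p = 0.0407) while Xbp1, a factor of the unfolded protein response, fell (-1.16, adjusted p = 0.0428). Of the heat shock list, 5 of 14 rose in GFPpos and 11 of 14 in FxE HA cells, where 1.37% and 1.18% of all probe sets did, and 0 fell in either. The list medians were 1.41 and 1.68, and 0.08 in Cre Mlo cells, a difference that was not tested over the list. Hsph1, a large chaperone of the Hsp110 class, averaged 16103 units in GFPpos against 1971 in GFPneg cells (3.01, adjusted p = 0.0132) and 24455 in FxE HA against 3149 in FxE Ctrl cells (2.88, adjusted p = 0.000202). Hspa8, the constitutive Hsp70, averaged 39074 units in GFPpos against 9476 in GFPneg cells and 45152 in FxE HA against 9804 in FxE Ctrl cells. Dnaja1 and Chordc1, co-chaperones, rose in GFPpos cells by 1.85 and 1.41 (adjusted p = 0.0185 and 0.0286). In Cre Mlo cells, where Gadd45a rose, the stress-inducible Hsp70 gene Hspa1b rose too, averaging 1189.9 units against 390.1 in Ctrl Mhi cells (1.59, adjusted p = 0.00339), the small heat shock gene Hspb1 fell (-2.33, adjusted p = 0.00837), and Hspa8 differed by -0.12 (adjusted p = 0.721). Hspa1b averaged 4114 units in FxE HA against 207 in FxE Ctrl cells (3.63, adjusted p = 0.00963), and 2219 units in GFPpos against 216 in GFPneg cells without passing (3.42, adjusted p = 0.066). The part of heat shock genes in the Gadd45a values of these comparisons was not tested.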

How the data were processed

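The labels place 49 arrays of mouse B cells in 14 groups, 37 on U74Av2 and 12 on U74A arrays. The deposited values are hybridization intensities per probe set, which the authors calculated with Microarray Suite 5.0 and scaled to 1500 units after a mask file; for HEL 48h, BM 48h Ctrl and HEL Mlo neither target nor mask is given in the sources used here. No test crosses the 2 tables, whose arrays were normalized apart. Arrays have no read depth, and their number limits the precision. A share of 1.48 to 6.86% of the values on a U74Av2 array lay at or below 20 units.

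After a floor of 20 units, log2 signals went into limma (version 3.58.1, R 4.3.3) with lmFit and eBayes. Two-sided p-values were adjusted after Benjamini and Hochberg across the whole table, 9977 or 12588 probe sets, and a probe set was called below an adjusted p of 0.05. The methods' rule on detection p-values could not be applied, since the tables used here hold none. Cre Mlo, Cre Mhi and Ctrl Mhi were fitted together, FxE HA and FxE Ctrl with a term for hours, and every other comparison on its own. Differences of effects were contrasts of contrasts over the 37 arrays. The methods' t-test, an unequal-variance test on linear signals, was combined with their criteria (p under 0.01, or 0.05 for FxD against FxE, a fold of 2 and a difference of 200 units). The code was tested on simulated data.

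Probe sets were named through RefSeq, 8724 of the U74Av2 ones matching 1 gene. Where a gene had several probe sets, the brightest by mean log2 signal stood for it. The members and the gene lists were chosen with earlier results of these data known. Genes named from a list are up to 4 with the smallest adjusted p among those called in Cre Mlo minus Ctrl Mhi and likewise in GFPpos minus GFPneg, besides relatives of the 3 genes named whatever they did and the 5 genes most like each in group means; Il7r, Bcl6 and genes given in FxE HA cells were named after their values were seen. Motifs were searched by exact match on both strands. Where replicate numbers pair arrays was checked by the correlation of deviations from group means over probe sets with a mean signal of at least 500: it was 0.18 to 0.47 for Cre Mlo with Cre Mhi and 0.11 to 0.24 for HEL 48h with BM 48h Ctrl, which were taken as paired, and fell below 0.1 in at least 1 pair elsewhere. No 2 arrays of a group shared more than 0.11% of their values. Alternatives were another floor, quantile normalization, a filter on dim probe sets, one fit of all arrays, a replicate block, an added constant, the methods' t-test and each array left out.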

Additional observations from a re-analysis of the deposited data

Results flagged for a closer look

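Sesn1 in Cre Mlo replicate 3, at 9490 units, stood apart from the other Cre Mlo arrays (7993 to 8132 units): its gap to the nearest was 0.90 of the group's range, above the limit of 0.829 for 4 samples. Of 15 combinations of gene and group tested this way 1 was past its limit, and chance gives about 1 in 20. Without that array the Sesn1 difference between Cre Mlo and Ctrl Mhi cells was 0.38 in log2 (limma adjusted p = 0.0924).

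The herbimycin effect on Sesn1 differed between cell sources, the FxE HA effect minus the GFPpos effect being -1.03 in log2 (limma adjusted p = 0.0119). All 3 GFPpos arrays lay above all GFPneg arrays, whereas FxE HA and FxE Ctrl arrays overlapped.

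The Irs2 difference of Cre Mlo from Ctrl Mhi cells exceeded that of FxD from FxE cells by 2.72 in log2 (limma adjusted p = 0.0369), a call that ended without any 1 of 9 of the 14 arrays.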

How the results depend on the processing

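The calls of Irs2 and Gadd45a in Cre Mlo against Ctrl Mhi and against Cre Mhi cells, and of Gadd45a in FxE HA against FxE Ctrl cells, held under every alternative run, with each array left out too, save that Irs2 in the Cre comparisons was below the filter of a mean signal of at least 500 and not tested there. Of 311 values and counts under another setting 264 kept their direction and call, or stayed within 1.5 times, and of 508 with an array left out 433 did. The Sesn1 call in Cre Mlo against Ctrl Mhi cells did not hold with all arrays in one fit (adjusted p = 0.0613), with a replicate block (0.0691) or by the methods' t-test and criteria, and Sesn1 passed against Cre Mhi cells with a floor of 100 units (0.018) or only probe sets of mean signal of at least 500 (0.0286). Irs2 is dim, with a mean of 63.1 units in FxE Ctrl and 91.4 in GFPneg cells, so that a floor of 100 units raises its values there. The cause of the changes below was not tested. Leaving out dim probe sets also lowers the number of tests, and one fit of all arrays pools the spread of 10 groups.

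Of the 3 genes, 1 passed in B6 Mneg against Ctrl Mhi cells with a mean signal of at least 500 (Irs2, below it, was not tested) and 0 by the methods' t-test. Against B6 Mneg cells Cre Mlo cells had 1 (Sesn1) with either that filter or all arrays in one fit. GFPpos against GFPneg cells gave 0 after quantile normalization and by the methods' t-test, 2 with the filter and 3 with all arrays in one fit. FxE HA against FxE Ctrl cells gave 2 with all arrays in one fit or no hours term. FxE Ctrl against FxE cells gave 2 with a floor of 100 units or the filter and 3 with all arrays in one fit. HEL 48h against BM 48h Ctrl cells gave 1 (Gadd45a, adjusted p = 0.0477) with the filter. The share of all probe sets called under the other settings of this section was not counted. Counts of genes under them therefore only describe the values.

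With the replicate block, 0 passed in B6 Mneg against Ctrl Mhi, in GFPpos against GFPneg and in FxE Ctrl against FxE cells, where numbers do not pair the arrays; where they do (Cre Mlo with Cre Mhi, HEL 48h with BM 48h Ctrl) the block changed no call.

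Directions that turned belonged to differences near 0: Gadd45a in Cre Mlo minus B6 Mneg was 0.0049 after quantile normalization, Irs2 in FxD minus FxE was -0.10 with a floor of 100 units, -0.14 by the methods' t-test and -0.0052 as log2(signal + 50), and Sesn1 in HEL 48h minus BM 48h Ctrl was -0.0073 after quantile normalization. With 1 array left out, log2 differences ran from -0.24 to 0.044 for Sesn1 in B6 Mneg minus Ctrl Mhi, from -0.17 to 0.089 for Gadd45a in Cre Mlo minus B6 Mneg, from -0.64 to 0.63 for Irs2 and from -0.0048 to 0.23 for Sesn1 in FxD minus FxE, and from -0.092 to 0.18 for Sesn1 in HEL 48h minus BM 48h Ctrl. For the FxE HA effect minus the GFPpos effect they ran from -0.85 to 0.19 for Irs2 and from -0.070 to 0.62 for Gadd45a. The number of genes called ran from 0 to 2 in B6 Mneg minus Ctrl Mhi, was 0 throughout in GFPpos minus GFPneg, and ran from 0 to 1 in FxE Ctrl minus FxE and from 0 to 1 for the receptor deletion effect minus the FxD effect. The last leave-one-out runs, on differences of effects, were added after seeing the data.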
